A study of Rattus norvegicus with 11 samples.

Results

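miR-192 and miR-194 are a pair of miRNAs of endoderm-derived tissues, and both were measured in islets of the pancreas from daughters of Sprague Dawley rats, grouped by whether the father had eaten a high-fat or a standard diet. They are the 2 miRNAs listed under the names rno-miR-192 and rno-miR-194, without star names, on all 11 Agilent miRNA arrays, and they were taken from the 340 miRNA names that both array designs carry. HFD daughters had fathers fed pellets with 43% fat, and Control daughters had fathers fed chow with 9% fat. Both groups of fathers were mated at 15 weeks of age with females kept on chow, and all daughters were weaned at 3 weeks onto chow and gave their islets at 13 weeks. There were 5 HFD and 6 Control arrays, each from a separately numbered sample, of which 4 HFD and 4 Control arrays were of a first design and 1 HFD and 2 Control arrays of a second. Fathers and litters are not identified in the labels, so p-values measure the spread between these samples alone. The labels name no difference in treatment between the groups other than the diet of the father. Islets are mixtures of cells, and in such bulk RNA a lower level can mean fewer cells of a type or less of the miRNA per cell, which cannot be told apart.

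MicroRNAs are short RNAs that bind matching sites in mRNAs, mainly through bases 2 to 8 of their 5′ end (the seed), and lower the output of those mRNAs. miR-192 and miR-194 are abundant in liver, intestine and kidney, where hepatocyte nuclear factors drive their genes, and in human cells p53 raises them together with miR-215. Each gene for miR-194 lies beside a gene of the miR-192 and miR-215 kind, and the neighbours are made from a shared primary transcript.

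The mature sequences are shown because they tell which of these miRNAs share targets and which could be confused on an array. They are those of RefSeq on the GRCr8 build, 5′ to 3′, with the seed in capitals, and the array name without a star was read as the 5p arm. miR-215 is included as the nearest relative of miR-192.
miR-192: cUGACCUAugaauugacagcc
miR-194: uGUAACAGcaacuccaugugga
miR-215: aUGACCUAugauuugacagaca
miR-192 and miR-215 had the same seed, and no other name among 724 mature rat entries had it. The seed of miR-194 belonged to no other name. Counted from 1 at the 5′ end of miR-192, 18 of 21 positions were identical in miR-215, and the substitutions from miR-192 to miR-215 were C1A, A12U and C20A, with 1 further base at the 3′ end of miR-215.

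The genes form 2 clusters. On chromosome 1 the plus strand carries the Mir194-2 hairpin at chr1:212994024-212994108 and, 100 bases further on, the Mir192 hairpin at chr1:212994209-212994318. On chromosome 13 the plus strand carries Mir194-1 at chr13:99382716-99382798 and, 191 bases further on, Mir215 at chr13:99382990-99383086. The 2 hairpins of the chromosome 1 cluster are shown with the mature arm in capitals.
Mir194-2: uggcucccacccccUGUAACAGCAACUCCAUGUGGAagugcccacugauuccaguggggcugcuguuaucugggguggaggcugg
Mir192: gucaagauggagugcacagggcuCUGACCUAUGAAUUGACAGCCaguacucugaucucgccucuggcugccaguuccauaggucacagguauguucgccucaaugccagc
Mature miR-194 has the same letters from both loci, so the arrays cannot tell a product of Mir194-2 from one of Mir194-1.

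Signals were divided by a brightness factor per array, which was the array's 75th percentile over those 85 miRNAs that every array detected, and are called scaled signal below. Brightness before scaling spanned 652.2 to 1052 scanner units on the first-design HFD arrays and 759.8 to 962.8 on the first-design Control arrays. It was 2144 on the second-design HFD array, against 1018 and 2362 on its Control arrays. HFD 653 stood apart, with 105 shared miRNAs detected. Its negative control spots had an SD of 12.9, and those of the remaining 7 first-design arrays had SDs of 2.26 to 3.65.

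miR-192 was detected on all 11 arrays and did not differ detectably between HFD and Control daughters. On the first design its scaled signal was 70.1, 109.7, 105 and 119 on HFD 603, 607, 644 and 653, against 91.4, 79.3, 83.9 and 74.9 on Control 602, 613, 615 and 639. HFD 607, HFD 644 and HFD 653 lay above every Control array of that design, and HFD 603 lay below every one, so the groups overlapped. On the second design HFD 640 read 66.2, between 56.8 on Control 635 and 86.4 on Control 652. On the log2 scale the first-design level averaged 6.63 ± 0.34 in HFD and 6.36 ± 0.12 in Control (SD, n = 4 each). Over all arrays, with array design as a block, the log2 difference of HFD minus Control was 0.18 ± 0.17 (SE), a 1.13-fold ratio with a 95% interval of 0.875-fold to 1.47-fold. limma gave an unadjusted p of 0.309 and an adjusted p of 0.987, and an exact permutation test that kept array design fixed gave a 2-sided p of 0.319 over 210 splits, where the smallest possible is 0.0048. Taken design by design, the log2 difference was 0.27 on the first and -0.083 on the second.

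miR-194 was dimmer against its own background, was detected on 8 of 11 arrays and also did not differ detectably. On the first design its scaled signal was 10.9, 41.2, 24.5 and -2.45 on HFD 603, 607, 644 and 653, against 12.6, 21.0, 17.2 and 19.9 on Control 602, 613, 615 and 639. The HFD arrays lay on both sides of the Control arrays, with HFD 607 and HFD 644 above every one of them and HFD 603 and HFD 653, where it was not detected, below every one. On the second design HFD 640 read 42.4, between 25.0 on Control 635, where it was not detected, and 68.3 on Control 652. Values under a floor of 10.6, a log2 value of 3.41, were set to it, which touched HFD 653 alone for miR-194 and no array for miR-192. The first-design log2 level averaged 4.21 ± 0.95 in HFD, with HFD 653 at the floor, and 4.12 ± 0.33 in Control (SD, n = 4 each). The log2 difference was 0.077 ± 0.40 (SE), a 1.05-fold ratio with a 95% interval of 0.572-fold to 1.94-fold. limma gave an adjusted p of 0.987, and the same exact permutation test gave a 2-sided p of 0.819. Taken design by design, the difference was 0.090 on the first and 0.038 on the second. The sign was not stable, and the difference was -0.20 without HFD 607, -0.023 without HFD 644, -0.035 without Control 602 and -0.066 without Control 635.

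**Figure D1:**
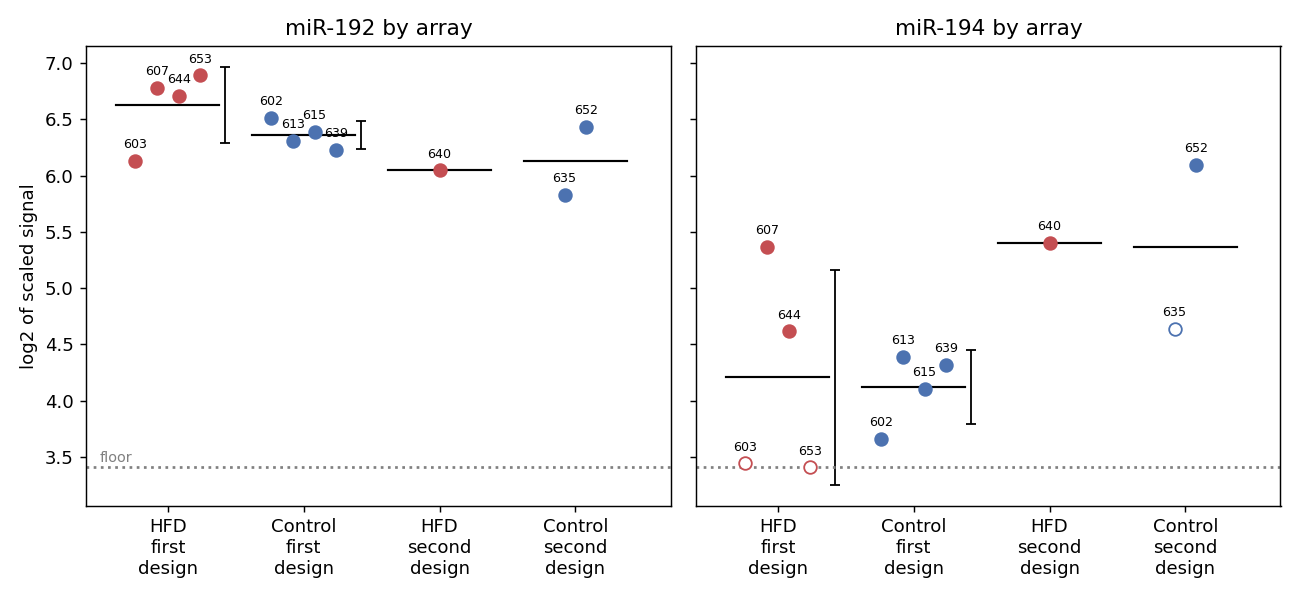
Each point is the log2 of the scaled signal on 1 array (y axis) by group and array design (x axis), for miR-192 on the left and miR-194 on the right; numbers name the array, open points mark arrays where the software did not detect the miRNA, horizontal lines are means, bars are ± 1 SD for groups of 4 and the dotted line is the floor of 3.41. For both miRNAs the first-design HFD arrays spread more widely (SD 0.34 and 0.95) than the Control arrays (SD 0.12 and 0.33).

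Both results were read against all miRNAs measured in the same way. Of 152 shared miRNAs detected on at least 5 arrays, limma called 0 at an adjusted p of 0.05, or 0%, the smallest adjusted p being 0.987, and 3, or 1.97%, had an unadjusted p under 0.05. Neither miR-192 nor miR-194 was among those 3. Of the 152, 108 had a fitted difference above 0, or 71.1%, with a median difference of 0.067, so a positive sign was shared by most miRNAs under this scaling. The number above 0 was 36 when the 75th percentile was taken over all shared names, 49 with median scaling, 46 with quantile normalisation, 45 with an RMA-like summary and 134 without scaling. miR-192 was measured with ordinary precision, 82 of the 152 having a larger SE. miR-194 was among the least precisely measured, 8 having a larger SE. The HFD and Control arrays of the first design did not overlap for 2 of the 152, or 1.32%, and both miR-192 and miR-194 overlapped.

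Each miRNA was read by the same 2 probes on both designs, with 10 spots per probe and array and no saturated spot. The first probe of miR-192, A_26_P00001435, had a mean scaled signal of 19.3 ± 5.35 on HFD arrays and 14.9 ± 0.70 on Control arrays of the first design (SD, n = 4 each). Its other probe, A_26_P00001436, had 81.4 ± 16.1 on HFD arrays and 67.5 ± 6.84 on Control arrays (SD, n = 4 each). Both probes of miR-192 thus read higher on average on first-design HFD arrays, by 1.30-fold and 1.21-fold. On the second design both ran the other way, at 0.945 and 0.907 times the mean of the Control arrays on the single HFD array. None of these ratios was tested apart from the sum. For miR-194, probe A_26_P00001441 had 18.4 ± 11.7 on HFD arrays and 16.3 ± 3.24 on Control arrays (SD, n = 4 each). Probe A_26_P00001442 lay near 0 on the first design, at 0.12 ± 7.47 on HFD arrays and 1.44 ± 1.07 on Control arrays (SD, n = 4 each), with 0 of its 80 spots well above background. On the second design the same probe read 16.2 on HFD 640, against 9.32 on Control 635 and 23.3 on Control 652. On the first design this probe ranged from -9.89 to 7.58, while A_26_P00001441 ranged from 7.44 to 33.7 (scaled signal).

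Spots well above background show how firmly each array measured the pair. For miR-192, 72 of 100 HFD spots and 69 of 120 Control spots were well above background. HFD 607, HFD 644, HFD 640 and Control 652 had all 20 miR-192 spots above it, while HFD 653 had 2 and Control 635 had 0. HFD 603 had 10, and the first-design Control arrays had 11 to 15. For miR-194, pooled in the same way, 32 of 100 HFD spots and 36 of 120 Control spots were well above background. HFD 603, HFD 653 and Control 635, the 3 arrays where the software did not detect miR-194, had 0 such spots. HFD 653, which had few such spots, gave the highest scaled signal of miR-192 among the 11 arrays.

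**Figure D2:**
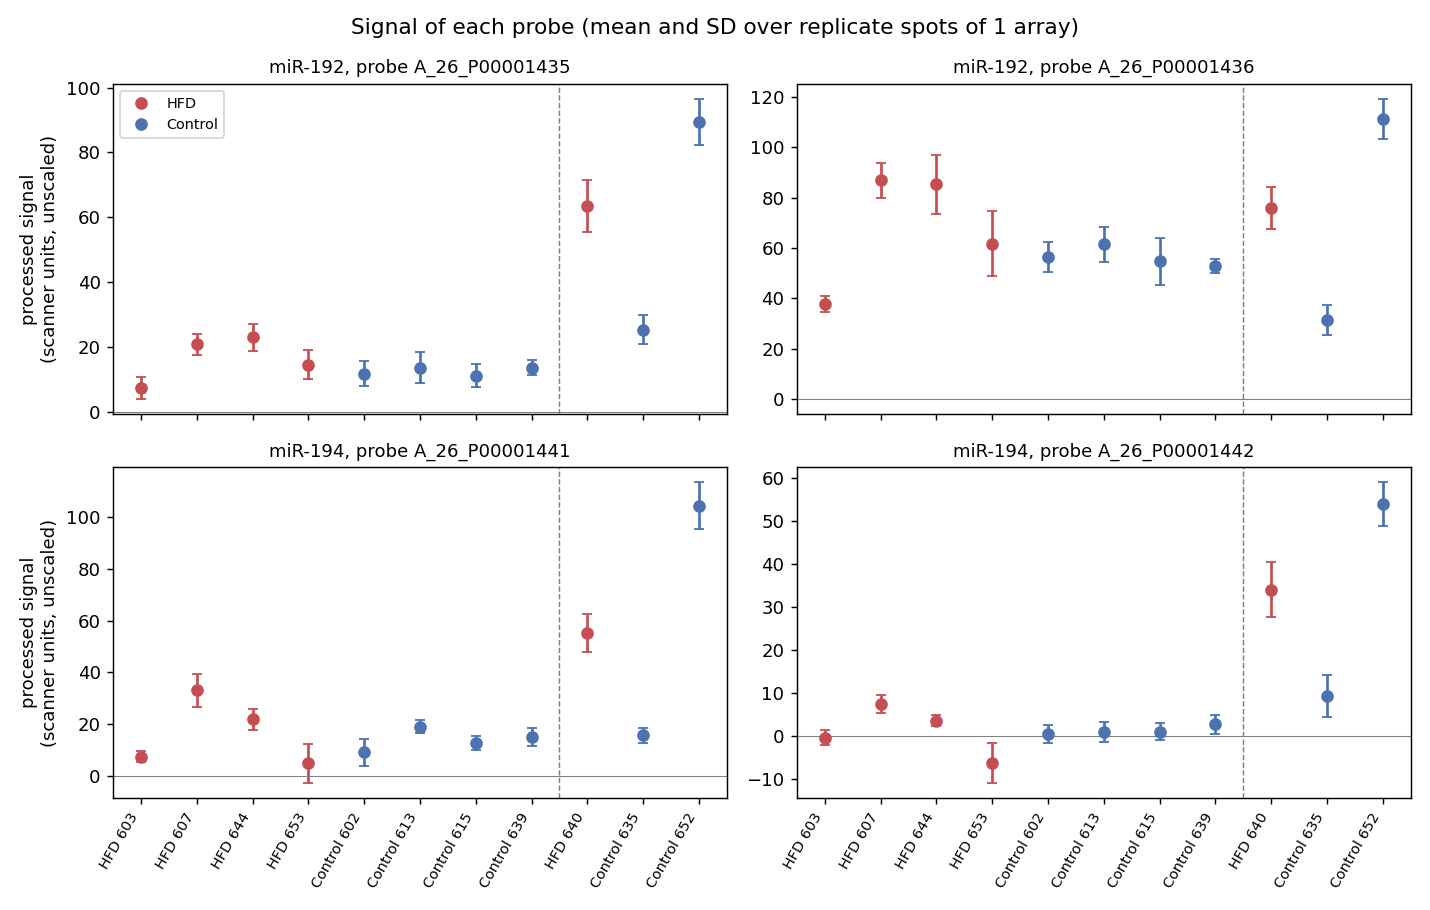
Each panel shows 1 probe, with its mean processed signal in scanner units before scaling between arrays (y axis) on each array (x axis) and bars of ± 1 SD over up to 10 replicate spots; the dashed line separates the first design (left) from the second (right). Probe A_26_P00001442 of miR-194 lies between -6.34 on HFD 653 and 7.43 on HFD 607 on the first design.

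The level of miR-194 followed the brightness of the array, although each array had been scaled. Over the 8 first-design arrays the log2 level of miR-194 and the log2 of the 75th percentile of unscaled signal had a Pearson r of 0.90 (exact permutation p = 0.0019, adjusted p = 0.032 over 17 relations) and a Spearman rho of 0.95 (exact permutation p = 0.0011, adjusted p = 0.019). The relation held without HFD 603 and HFD 653, the arrays farthest from the median brightness (r = 0.80, n = 6, exact permutation p = 0.042), and as deviations from the group means (r = 0.92). On the second design the order was the same, with Control 635 dimmest and lowest in miR-194, HFD 640 next and Control 652 brightest and highest. miR-192 had that order there too, at 56.8, 66.2 and 86.4 (scaled signal), so the order on those 3 arrays was not particular to miR-194. The 2 brightest first-design arrays, HFD 644 and HFD 607, were the 2 with the highest miR-194, and the 2 dimmest, HFD 603 and HFD 653, the 2 with the lowest. With the floor raised to the 5th percentile of detected values r was 0.60 (exact permutation p = 0.075), and with normexp, where an offset was added before scaling, it was -0.89. The part of brightness in the miR-194 difference was not tested. For miR-192 the same relation over the first-design arrays gave an r of 0.13 (exact permutation p = 0.738), and it was the only other relation with brightness computed.

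miR-192 and miR-194 did not vary together detectably from array to array. Over the 8 first-design arrays r was 0.24 (exact permutation p = 0.564, adjusted p = 0.915) and rho 0.12 (exact permutation p = 0.793). The value depended on single arrays, being 0.71 without HFD 653, which had the highest miR-192 and the lowest miR-194, and -0.098 without HFD 607, which had the highest miR-194. It depended on processing too, being 0.75 with the 75th percentile over all shared names, 0.78 without scaling, 0.80 with an RMA-like summary and 0.90 with normexp background correction. Without scaling both levels still hold the brightness of the array, and with normexp an offset was added before scaling. The RMA-like summary starts from the same normexp values, offset included, so these 2 settings are not independent. The part of brightness in these values of r was not tested. Without both HFD 607 and HFD 653, the arrays farthest from the median miR-192, r was 0.47 (n = 6, exact permutation p = 0.35). The gap between the log2 levels of miR-192 and miR-194, which has meaning only between arrays, was 2.69, 1.41 and 2.09 on HFD 603, 607 and 644, against 2.24 ± 0.44 on Control arrays (SD, n = 4), which lay between 1.91 and 2.85. On HFD 653, where miR-194 was set to the floor, the gap is only bounded, at 3.48 or more. As a description, 23 of 83 other miRNAs detected on every array correlated more closely with miR-192 than miR-194 did. Of 84, a number that includes miR-192 itself, 34 correlated more closely with miR-194 than miR-192 did. Candidates without spread over the 8 arrays were left out.

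**Figure D3:**
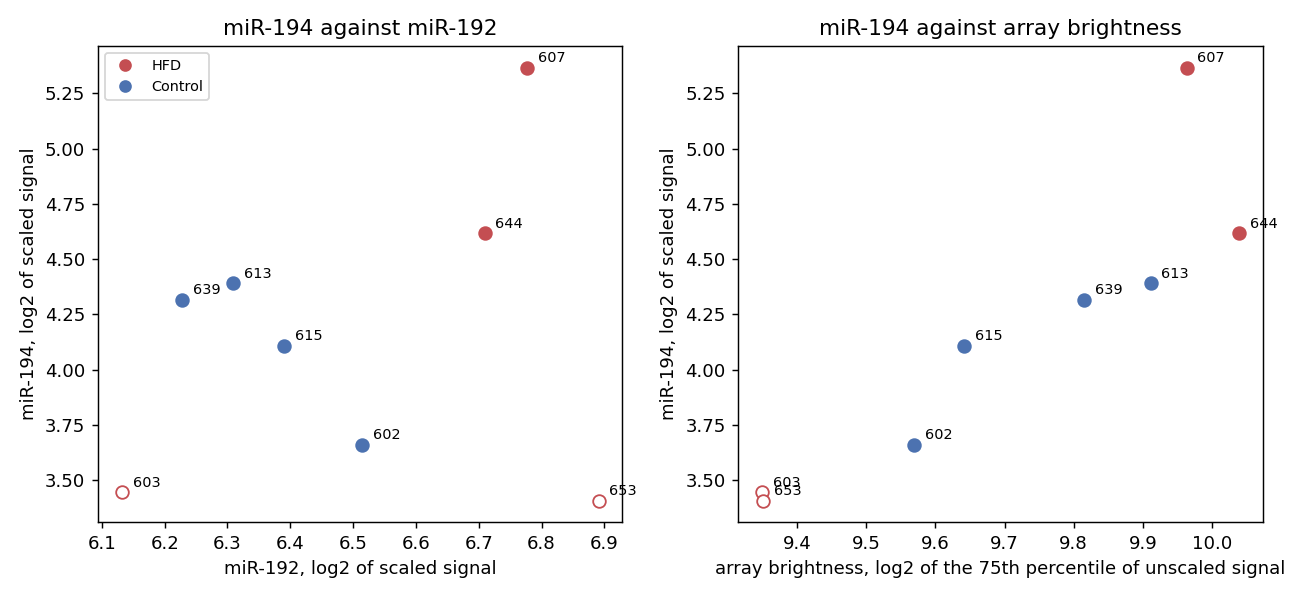
Each point is 1 of the 8 first-design arrays, with the log2 level of miR-194 (y axis) against the log2 level of miR-192 on the left and against array brightness, the log2 of the 75th percentile of unscaled signal, on the right; open points mark arrays where miR-194 was not detected. HFD 653 lies alone at the lower right of the left panel, and on the right miR-194 climbs with brightness (r = 0.90).

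miR-215, the seed partner of miR-192 and the neighbour of Mir194-1, was detected on 2 of 11 arrays, too few to be tested. Its scaled signal was 50.5 on HFD 607 and 56.6 on Control 652, against -12.5 to 2.41 on the other 9 arrays. HFD 607 and Control 652 were also the arrays of highest miR-194 on their designs, at 41.2 and 68.3. This match rests on those 2 arrays, and its cause was not tested. Control 652 was also the brightest array of its design and the highest there in miR-192, at 86.4. HFD 607 was 1 of the 2 brightest of its design, and in miR-192 it read 109.7, below the 118.7 of HFD 653. On HFD 607 both miR-215 probes had all 10 spots well above background, with mean scaled signals of 24.7 and 25.8. On the 9 arrays without miR-215, miR-192 read 56.8 to 118.7 (scaled signal), while the signal summed over both miR-215 probes was at most 2.41. Single miR-215 probes read higher there, up to 9.84 for A_26_P00001613 on HFD 653, where 0 of its 10 spots were well above background. The second design reads miR-215 with other probes than the first. Whether the probes of miR-192 respond to miR-215 was not tested.

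**Figure D4:**
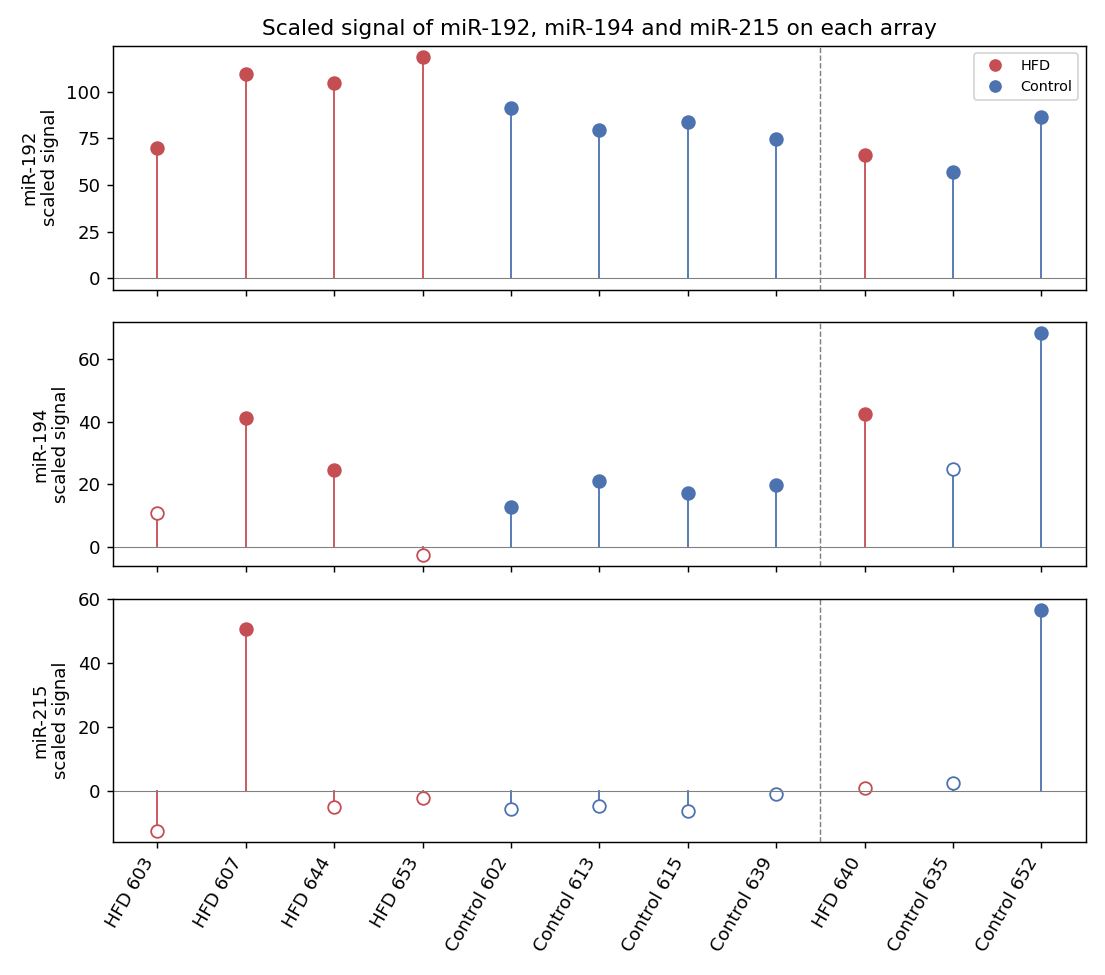
Scaled signal (y axes, scanner units after scaling) of miR-192, miR-194 and miR-215 on each of the 11 arrays (x axis), with open points where the software did not detect the miRNA and a dashed line between the first design (left) and the second (right). miR-215 rises above 2.41 on HFD 607 and Control 652 alone.

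The passenger strands, the opposite arms of the hairpins that are mostly degraded, were on the second design only. miR-192* and miR-194* were detected on none of its 3 arrays, HFD 640, Control 635 and Control 652, and 0 of their spots were well above background.

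The miRNAs whose first-design pattern was most like each member were found by Pearson r over 8 arrays among miRNAs detected on all 11, as a description. For miR-192 they were miR-429 (r = 0.77), let-7d (0.62), miR-29c* (0.61), miR-182 (0.61) and miR-410 (0.60). For miR-194 they were miR-185 (r = 0.71), miR-127 (0.69), miR-30a (0.66), miR-103 (0.63) and miR-7a (0.63). The lists had no miRNA in common. With 83 and 84 candidates and 8 arrays that share slide and scaling, values of this size are among the highest of many, and the median r over candidates was 0.039 for miR-192 and 0.12 for miR-194.

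Lists of miRNAs of epithelia, of the p53 response and of gut, kidney or liver were read, and limma called 0 of their members. Each list holds miR-192 and miR-194, so its counts and median include the pair. Of 10 epithelial and endodermal miRNAs, 7 were tested, 0 were called, 6 read above 0 and 1 below, and the median log2 difference was 0.055, against 0.067 over all 152. After miR-192 the smallest p belonged to miR-429, a miR-200 family member that holds down mesenchymal regulators, with a difference of 0.055 ± 0.098 (SE). miR-203 and miR-205, miRNAs of stratified epithelia, were detected on no array. Of 11 p53-responsive miRNAs 6 were tested and 0 called, all 6 read above 0, and the median was 0.10. miR-34a, the best known p53 target among miRNAs, differed by 0.23 ± 0.34 (SE), and miR-34b and miR-34c were detected on no array. Of 9 miRNAs prominent in gut, kidney or liver 7 were tested and 0 called, and all 7 read above 0. The median was 0.18, which is the difference of miR-192 itself. miR-10b and miR-10a-5p, which lie in Hox clusters, had the smallest p of that list, with differences of 0.41 ± 0.31 and 0.26 ± 0.21 (SE). All these signs are read against the 71.1% of tested miRNAs above 0, and the median over all 152 was -0.15 with the 75th percentile over all shared names, -0.084 with median scaling, -0.076 with quantile normalisation and -0.028 with an RMA-like summary.

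Markers of islets and of neighbouring cells were measured on the same arrays, and their part in the results was not tested. miR-375 and the other 5 islet endocrine markers were tested, 3 read above and 3 below 0, and their summed log2 level was 13.5 to 13.8 on HFD arrays and 13.5 to 14.0 on Control arrays of the first design. miR-122, which defines hepatocytes, was detected on no array. The summed acinar markers, of which 2 of 3 were on both designs, ran from 6.73 to 9.38 on HFD arrays and from 4.39 to 9.28 on Control arrays of the first design. The leukocyte markers, all 4 on both designs, ran from 5.07 to 8.48 on HFD arrays and from 5.05 to 5.33 on Control arrays. On the first design the 2 endothelial markers ran from 8.45 to 9.26 and the 5 mesenchymal ones from 8.09 to 9.22 on HFD arrays. The Control arrays of that design had 8.60 to 8.97 and 8.04 to 8.85. Summed over the epithelial miR-200 family, the log2 level ran from 13.2 to 13.4 on HFD arrays and from 13.2 to 13.6 on Control arrays of the first design. Across the 8 first-design arrays the 12 relations of miR-192 and miR-194 with these 6 summed lists had r between -0.60 and 0.61, and the smallest adjusted p was 0.535 by exact permutation. Red blood cell markers, of which 2 of 3 were on both designs, lay at the floor of 3.41 on every first-design array. Their summed log2 level on the second design was above that floor, at 5.18 on the HFD array and 4.75 to 5.95 on the Control arrays.

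The authors' deposited tables ranked the 8 first-design arrays in the same order for miR-194 and in another order for miR-192. For miR-192 the authors' deposited table has log2 values of 6.30, 6.90, 6.90 and 6.65 on HFD 603, 607, 644 and 653, against 6.56, 6.62, 6.51 and 6.54 on Control 602, 613, 615 and 639. For miR-194 the authors' deposited table has 5.77, 6.25, 6.05 and 5.61 on those HFD arrays, against 5.81, 5.97, 5.87 and 5.94 on those Control arrays. HFD 607 was thus highest and HFD 653 lowest in miR-194 there too, while for miR-192 HFD 607 took the highest place. The cell of miR-194 on Control 635 is blank, and that array drops out of the miR-194 fit on the tables. On the second design the authors' deposited table has miR-192 at 6.44 on HFD 640, against 4.39 on Control 635 and 6.91 on Control 652. It has miR-194 at 5.79 on HFD 640, against 6.57 on Control 652 alone. These values carry no scaling between arrays, and an offset of 50 was added on the first design only. Fitted on these tables, the log2 difference was 0.30 ± 0.37 (SE) for miR-192 and -0.14 ± 0.18 (SE) for miR-194, with a limma adjusted p of 0.921 for both.

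The direction of both small differences depends on how the arrays were scaled and summarised. The miR-192 difference lay between -0.045 and 0.30 over 30 alternatives and that of miR-194 between -0.20 and 0.32 over 29, and limma passed neither at an adjusted p of 0.05 in any of them. Without HFD 653 the difference was 0.11 ± 0.17 for miR-192 and 0.27 ± 0.39 for miR-194 (SE).

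**Figure D5:**
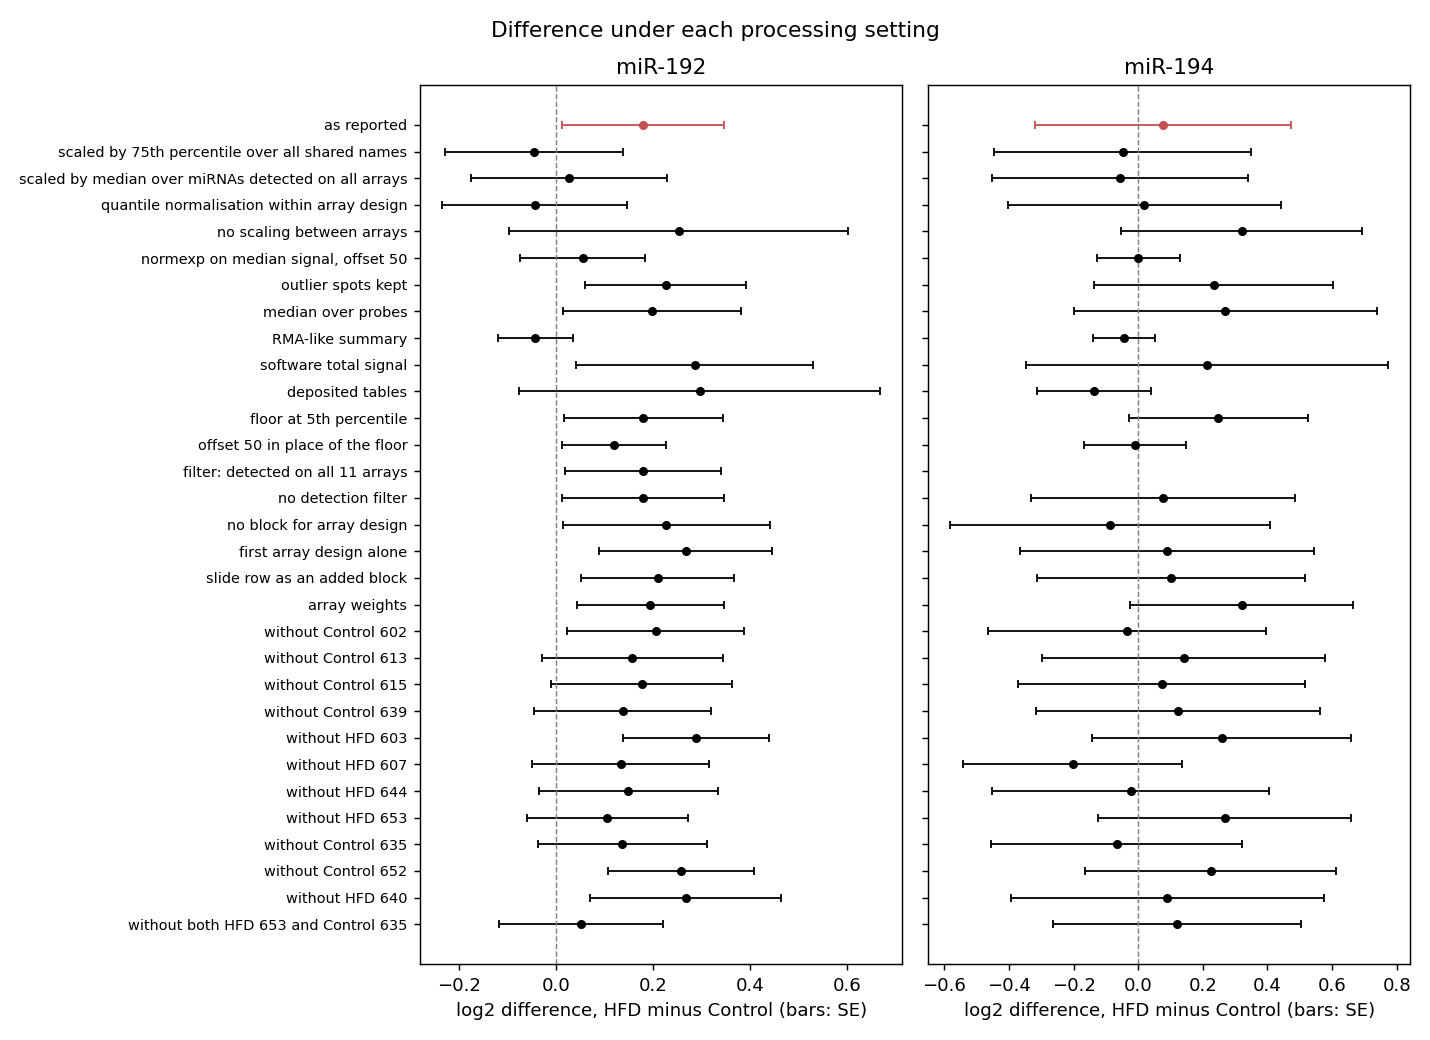
The log2 difference HFD minus Control (x axis) of miR-192 on the left and miR-194 on the right under each processing setting or left-out array (y axis), with bars of ± 1 SE; the reported value is in red at the top. miR-192 stays within -0.045 and 0.30 and miR-194 within -0.20 and 0.32, on both sides of 0.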

How the data were processed

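Per the labels' protocols, each array received Cy3-labelled islet RNA (100 ng of total RNA) in 1 colour. The deposited spot intensity comes from Agilent Feature Extraction 10.5.1.1 (first design) or 10.7.3.1 (second), is background-subtracted and, per the file headers, carries no scaling from one array to another. The authors' deposited log2 tables equal log2 of the software's total intensity plus 50 in 2720 of 2720 shared cells on the first design, and log2 of it, with no offset, in 470 of 477 filled cells on the second (within 0.001). The submitters' processing notes name RMA and Partek, whose role is not given in the sources used here.

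Spots without a feature outlier flag were averaged per probe, probes summed per miRNA, arrays scaled by their 75th percentile over miRNAs detected on all arrays, values floored at the 1st percentile of detected values, and log2 taken. limma 3.58.1 in R 4.3.3 was fitted over 152 shared miRNAs detected on at least 5 arrays, with array design as a block and 2-sided Benjamini-Hochberg adjusted p-values. Array design, slide and scan coincided. The fit and the exact tests were tested on simulated data. The number of arrays limits the precision.

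The members, lists and rules were chosen with earlier results of these data known. A listed name without an arm that no array carries was matched to its 5p arm (miR-10a). The text names both members, miR-215, the passenger strands, the 5 miRNAs most like each member, the 2 of smallest p per list, and list members detected on no array. Alternatives covered scaling, background, probe summary, floor, filter, blocks and left-out arrays. The files hold no mean spot signal, so normexp used the median signal.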

Additional observations from a re-analysis of the deposited data

Results flagged for a closer look

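miR-215 was outside the tested miRNAs, and its scaled signal on HFD 607 was 50.5, above the -6.16 to -0.87 of the 4 Control arrays of that design. It was also detected on Control 652 of the second design, at 56.6, so it was seen once in each group. In groups of 4 first-design arrays, 26 groups (the members, the named list members, the gap within the pair and the marker sums) were screened with Dixon's test for a single distant array. It picked out 1 of them, where chance gives about 1.3. For miR-10a-5p, Control 639 had a log2 level of 6.36, below the 6.80 to 6.86 of the other 3 Control arrays, and the gap was 0.881 of the range of the 4. Without Control 639 the miR-10a-5p difference was 0.16 ± 0.21 (SE), against 0.26 ± 0.21 with it.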

How the results depend on the processing

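No paired analysis was possible because HFD and Control samples share no number. The miR-192 difference, 0.18, was -0.045 with the 75th percentile taken over every shared name, -0.044 under quantile normalisation within design and -0.043 with the RMA-like summary. The miR-194 difference, 0.077, was -0.048 with the first of these scalings, -0.056 with median scaling, -0.14 on the deposited values, -0.043 with the RMA-like summary, -0.0096 with an offset of 50 in place of the floor and -0.087 without the block. Control 635 is blank for miR-194 in the deposited values. Leaving out 1 array gave 0.11 to 0.29 for miR-192 and -0.20 to 0.27 for miR-194. Scaling alone moved the median over all 152 miRNAs by -0.21 (75th percentile over all names), -0.14 (quantile) and -0.15 (median). limma called 0 miRNAs in each of the other alternatives and 1, not a member, without scaling. The correlation of miR-192 and miR-194, 0.24, was 0.75 with the 75th percentile over all names, 0.78 unscaled, 0.80 with the RMA-like summary and 0.90 with normexp, with unadjusted exact permutation p-values of 0.031, 0.027, 0.015 and 0.0020, and -0.098 to 0.71 on leaving out 1 array. The correlation of miR-194 with brightness, 0.90, was 0.60 with the floor at the 5th percentile (exact permutation p = 0.075) and -0.89 with normexp, where an offset of 50 was added before scaling, and 0.87 to 0.98 on leaving out 1 array. miR-429, at 0.055, read -0.17, -0.098, -0.0015 and -0.055 under the 75th percentile over all names, median scaling, quantile normalisation and the RMA-like summary, -0.016 without both HFD 653 and Control 635, and -0.00073 to 0.11 on leaving out 1 array. miR-34a, at 0.23, read -0.10 under quantile normalisation, -0.00086 with the RMA-like summary and -0.0088 to 0.42 on leaving out 1 array. miR-10b, at 0.41, read -0.010 under quantile normalisation and 0.22 to 0.62 on leaving out 1 array. miR-10a-5p, at 0.26, stayed above 0 in all 30 alternatives, from 0.027 to 0.40. The cause of these changes was not tested. Normexp, the offset, leaving out both HFD 653 and Control 635, and all alternatives for brightness were chosen after seeing the data. Slide and scan coincided with array design and gave no separate fit. miR-194 was not detected on all arrays and has no value under that filter. miR-194 was not detected on HFD 603, HFD 653 and Control 635, and its values there have little signal over background.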
